A study of Homo sapiens with 6 samples.

Results

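The array carried 392 probes for 266 genes whose names mark them as long intergenic noncoding RNAs (LINC followed by a number), antisense RNAs (ending in -AS1 or -AS2) or intronic transcripts (ending in -IT1), out of 50599 probes under 36337 names in all. The genes were chosen by name alone, and 5 further probes that lie on hg19 chromosome 13 between 45000000 and 56000000, around DLEU1, were set aside. They comprised 124 LINC genes with 215 probes, 126 antisense genes with 161 probes and 16 intronic genes with 16 probes. RNA was measured in HSC-3, KON and Ca9-22, which are established human oral squamous cell carcinoma (OSCC) cell lines, 72 h after transfection with Lipofectamine RNAiMAX of either a control siRNA (siCtrl) or siDLEU1-2, an siRNA against the lncRNA DLEU1. Each line and siRNA was read on 1 one-color Agilent array, so there were 3 siCtrl and 3 siDLEU1-2 arrays, and the 3 lines served as the replicates. Only 1 siRNA against DLEU1 was hybridized, so loss of DLEU1 and other effects of that siRNA cannot be told apart here.

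Long noncoding RNAs are transcripts that are spliced and capped like mRNAs in most cases but carry no long reading frame. Antisense genes are transcribed from the strand opposite a protein-coding gene, either across its body or away from its promoter, and a few of them are known to raise or lower that neighbor in cis. Intronic transcripts come from within an intron of their host gene. Several such RNAs are studied in carcinoma, among them ZEB1-AS1 beside the epithelial-mesenchymal regulator ZEB1 and LINC00460 in squamous tumors.

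The 6 arrays lay on 1 slide with 1 scan, had no saturated spots, and had 43.0 to 45.7% of all probes well above background. DLEU1 fell from 1.39 to -2.71 (HSC-3), from 2.16 to -1.48 (KON) and from 1.56 to -1.88 (Ca9-22) (log2 level, defined as the processed signal relative to the 75th percentile of the array, the scale of all levels below), a mean log2 change of -3.72 with an adjusted p of 0.0227. Of 10 squamous epithelial markers, 9 were well above background on every array, and TP63 on 5. The fibroblast genes COL1A2 and PDGFRB were so on none and the leukocyte gene PTPRC on 2, whereas single genes of other lineages (CD14, VWF, COL1A1, PMEL) were well above background throughout.

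The letters that stood for the changed members on the array were 60-base probes, and they are shown because probes of 1 gene did not always agree. ZNF503-AS1 was read by 3 probes on the plus strand of hg19 chromosome 10. The first, at chr10:77118742-77118801, was never detected, while the second, at chr10:77121305-77121364, and the third, at chr10:77121377-77121436, lay 12 bases apart and both rose after siDLEU1-2. LPP-AS2 was read by 1 probe on the minus strand at chr3:187868997-187869056. LINC00240 was read by 2 probes on the plus strand of chromosome 6, of which the first is mapped across chr6:26924913-26936246, longer than the probe itself, and the second lies at chr6:26991660-26991719. Probes are written in lower case throughout, since the whole probe hybridizes.
ZNF503-AS1 probe A_21_P0010833: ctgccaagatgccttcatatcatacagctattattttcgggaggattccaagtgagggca
ZNF503-AS1 probe A_21_P0010924: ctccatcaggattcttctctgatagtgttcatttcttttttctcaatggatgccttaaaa
ZNF503-AS1 probe A_33_P3569555: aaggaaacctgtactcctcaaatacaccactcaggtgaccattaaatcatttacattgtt
LPP-AS2 probe A_33_P3570208: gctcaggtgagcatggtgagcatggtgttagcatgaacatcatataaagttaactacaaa
LINC00240 probe A_21_P0004866: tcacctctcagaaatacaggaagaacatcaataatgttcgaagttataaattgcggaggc
LINC00240 probe A_33_P3220192: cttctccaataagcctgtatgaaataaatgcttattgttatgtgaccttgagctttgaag

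Of the 5 genes with a changed member probe, 2 lie head to head with their sense gene in the RefSeq annotation (GRCh38.p14). LPP-AS2 starts 69 bases from the nearest LPP start, and ZEB1-AS1 and ZEB1 start at the 2 ends of a stretch of 108 bases, each transcribed away from the coding gene. The genomic stretch from the antisense start to the sense start is chr3:188154088-188154157 for LPP and chr10:31320447-31320554 for ZEB1, printed on the plus strand with CG dinucleotides, which read the same on both strands, in capitals. The 300-base RefSeq promoter window of LPP-AS2 held 36 CG, a number that 12.7% of all 35116 windows reach. The ZEB1-AS1 window at this start held 20 CG, a number that 41.2% of windows reach.
LPP-AS2 to LPP: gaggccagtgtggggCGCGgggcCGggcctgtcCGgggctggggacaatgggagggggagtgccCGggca
ZEB1-AS1 to ZEB1: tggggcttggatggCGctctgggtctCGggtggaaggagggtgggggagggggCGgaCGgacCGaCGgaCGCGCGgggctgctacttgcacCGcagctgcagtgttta

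How many of these noncoding genes were measurable in OSCC cells depended on the detection flag. By the stricter flag an array detected (well above background) between 27.6 and 33.4% of the 392 probes (mean 31.3% ± 2.33, SD, n = 6 arrays), whereas by the weaker flag of signal significantly over background the mean was 58.0%. The stricter flag, used from here on, held for 63.9 to 66.8% of probes for protein-coding RefSeq mRNAs. The share was 37.7 to 41.1% for other RefSeq noncoding probes and 10.3 to 11.5% for probes of catalogued lincRNAs without such a name. For the LINC, antisense and intronic names it was 31.4 to 33.4% on the KON and Ca9-22 arrays, while both HSC-3 arrays were lower, at 27.6 and 29.6%. In all, 213 of the 392 (54.3%) did not reach this level on any array, compared with 44.6% of all probes. On all 6 arrays 80 (20.4%) reached it, compared with 35.8% of all probes. By gene, 141 of 266 had no probe detected on any array, and 59 had at least 1 probe detected on every array.

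**Figure D1:**
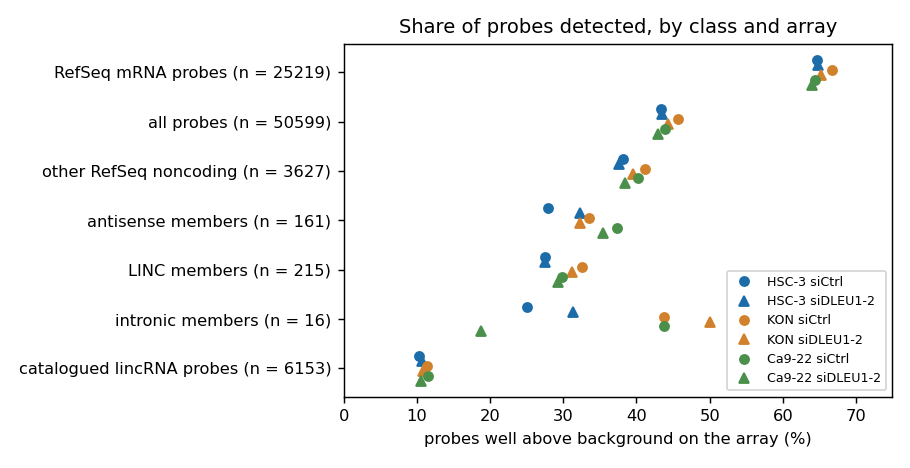
Percent of probes well above background (x axis) for each probe class (rows, with the number of probes), 1 symbol per array, colored by cell line with circles for siCtrl and triangles for siDLEU1-2. Antisense and LINC members lay between 27.4 and 37.3%, below other RefSeq noncoding probes and above catalogued lincRNA probes; the 16 intronic members scattered from 18.8 to 50%.

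Names on the array date from its design. By accession or symbol, 253 of the 266 genes matched a current RefSeq gene, and 61 of them carry another symbol today. RefSeq now lists 12 of the matched genes as protein-coding, among them LINC00116 (MTLN, a mitochondrial microprotein), LINC00493 (SMIM26) and LINC00085 (SPACA6), and 5 as transcribed pseudogenes. The array names are kept here.

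To test the effect of siDLEU1-2, a probe had to be well above background on at least 1 array of every line, which 103 of the 392 probes, of 73 genes, were. Of the 103, 3 were higher and 3 were lower after siDLEU1-2 at an adjusted p below 0.05 by limma with the line as a block. Over all 19956 probes tested, 3.98% were higher and 4.52% were lower, so the shares of 2.91% in either direction did not stand above the array as a whole. At an unadjusted p below 0.05, 11 of the 103 were higher and 16 lower, beside 14.6 and 14.9% of all probes tested. Among the 103 the log2 fold change had a median of -0.07, beside 0.01 over all probes tested, and by line the median was -0.07 (HSC-3), 0.22 (KON) and -0.23 (Ca9-22). All 5 genes were antisense RNAs except LINC00240. Without HSC-3 limma called 0 probes, here and on the whole array (9 higher and 15 lower of the 103 at an unadjusted p below 0.05), without KON again 0 (5 and 17), and without Ca9-22 only the 2 ZNF503-AS1 probes. The p-values measure the spread between lines, each with 1 array per siRNA.

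ZNF503-AS1, the antisense neighbor of the zinc-finger repressor ZNF503, rose most. Probe A_21_P0010924 went from -5.20 to -0.45 in HSC-3, from -5.84 to -2.26 in KON and from -4.09 to -1.53 in Ca9-22. It was well above background on all 3 siDLEU1-2 arrays and on no siCtrl array, a pattern held by 0.0633% of all probes and by no other of these noncoding genes. The mean change was therefore at least 4.62-fold, from means of -5.04 (siCtrl, not well above background) and -1.42 (siDLEU1-2). The probe entered the test only through the siDLEU1-2 arrays, so its adjusted p of 0.0266 rests on 3 dim controls. The neighboring probe A_33_P3569555 went from -4.19 to -0.91, from -5.27 to -2.45 and from -3.09 to -1.85 in the same order of lines, a mean log2 change of 2.45 ± 1.07 (SD, n = 3 lines; adjusted p 0.0426). Its siCtrl value was well above background in Ca9-22 only, and with dim values raised to the lowest detected signal the mean was 1.77 (adjusted p 0.0399). With normexp it was 0.78 and not called (adjusted p 0.0505). On both probes the siDLEU1-2 arrays lay above the siCtrl arrays, which follows from how the probes entered the test in all lines (A_21_P0010924) or in HSC-3 and KON (A_33_P3569555).

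ZNF503 and ZNF503-AS2 also had positive changes in each line, with wide spread between lines, and neither was called. ZNF503 itself went from 4.07 to 4.64 in HSC-3, from 1.14 to 3.73 in KON and from 1.58 to 3.28 in Ca9-22, a mean log2 change of 1.62 that did not pass the test (adjusted p 0.0785). The siDLEU1-2 and siCtrl arrays of ZNF503 overlapped, since HSC-3 was high in both. ZNF503-AS2, which starts 236 bases from the ZNF503 start, had changes of 0.46, 1.52 and 0.18 (adjusted p 0.196). In RefSeq the ZNF503-AS1 start lies 105381 bases from that of ZNF503.

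LPP-AS2 fell while LPP, a LIM-domain protein of focal adhesions, rose. The LPP-AS2 probe went from -2.73 to -4.72 in HSC-3, from -1.5 to -4.61 in KON and from -0.01 to -1.88 in Ca9-22, a mean log2 change of -2.33 ± 0.69 (SD, n = 3; adjusted p 0.0278). It was lower in each line, although the Ca9-22 array after siDLEU1-2 stayed above the HSC-3 control, and it was not well above background after siDLEU1-2 in HSC-3 and KON, which entered the test through siCtrl alone. With these dim values raised to the lowest detected signal the mean was -1.59 (adjusted p 0.0346). The LPP probe went from -0.95 to 0.31, from -2.22 to 0.15 and from -1.58 to 0.67, a mean log2 change of 1.96 with an adjusted p of 0.0305 and no overlap between siRNAs. A second LPP probe was well above background on no array. This was the 1 pair of 36 in which both the noncoding gene and its sense gene were called. With normexp background correction (LPP-AS2 -0.85, adjusted p 0.0535), detection on all 6 arrays, no filter, no line term or any line left out, 0 pairs were.

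ZEB1-AS1 rose by less. Its probe A_19_P00811048 went from -4.40 to -3.01 in HSC-3, from -3.31 to -2.30 in KON and from -2.32 to -1.52 in Ca9-22, a mean log2 change of 1.07 ± 0.30 (SD, n = 3; adjusted p 0.0379). The HSC-3 control was not well above background, so HSC-3 entered the test through siDLEU1-2 alone, where the probe was higher. Raised to the lowest detected signal, that control gave a mean of 0.79 (adjusted p 0.0452). The call was lost with normexp (0.36, adjusted p 0.0863), with no filter (0.171) and without any 1 line (0.0837 to 0.128). The rise was seen in all 3 lines but the groups overlapped, because the lines differed in level. The second probe, A_33_P3301782, was well above background on 3 arrays (both of Ca9-22 and KON after siDLEU1-2), went from -4.03 to -3.81, from -3.70 to -3.12 and from -3.12 to -1.78, and was not tested. ZEB1 itself, across the shared start region printed above, was not tested. Its better probe was at -5.56 and -5.59 in HSC-3, not well above background, went from -0.90 to -1.40 in KON, and was at -1.51 and -1.5 in Ca9-22.

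ST7-AS1, antisense to the candidate tumor suppressor ST7, fell and was the 1 called member well above background on all 6 arrays. It went from -1.67 to -2.87 in HSC-3, from -1.93 to -2.67 in KON and from -1.13 to -1.85 in Ca9-22 (mean log2 change -0.89 ± 0.27, SD, n = 3; adjusted p 0.0473). The call was lost with normexp background correction (-0.34, adjusted p 0.104), with no filter (0.196) and with any 1 line left out (0.118 to 0.143). Its sense gene ST7 changed by -1.04, -0.38 and -0.73 in these lines, a mean of -0.72 that missed the threshold (adjusted p 0.0795).

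LINC00240 was called on 1 of its 2 probes. Probe A_33_P3220192 went from -2.43 to -3.42 in HSC-3, from -2.52 to -3.37 in KON and from -2.93 to -4.14 in Ca9-22. It was well above background on all 3 siCtrl arrays and on no siDLEU1-2 array, as were 0.119% of all probes. On average it was therefore at least 1.66-fold lower, from measured means of -2.63 and -3.64. The probe entered the test only through the siCtrl arrays, where it was high, and its adjusted p of 0.0320 rests on 3 dim siDLEU1-2 arrays. With dim values raised to the lowest detected signal it was 0.0698, and the call was lost. The other probe, A_21_P0004866, changed by -0.22, 1.34 and -0.77, with an adjusted p of 0.893, and its KON control and Ca9-22 siDLEU1-2 array were dim. The difference between the probes was not tested.

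**Figure D2:**
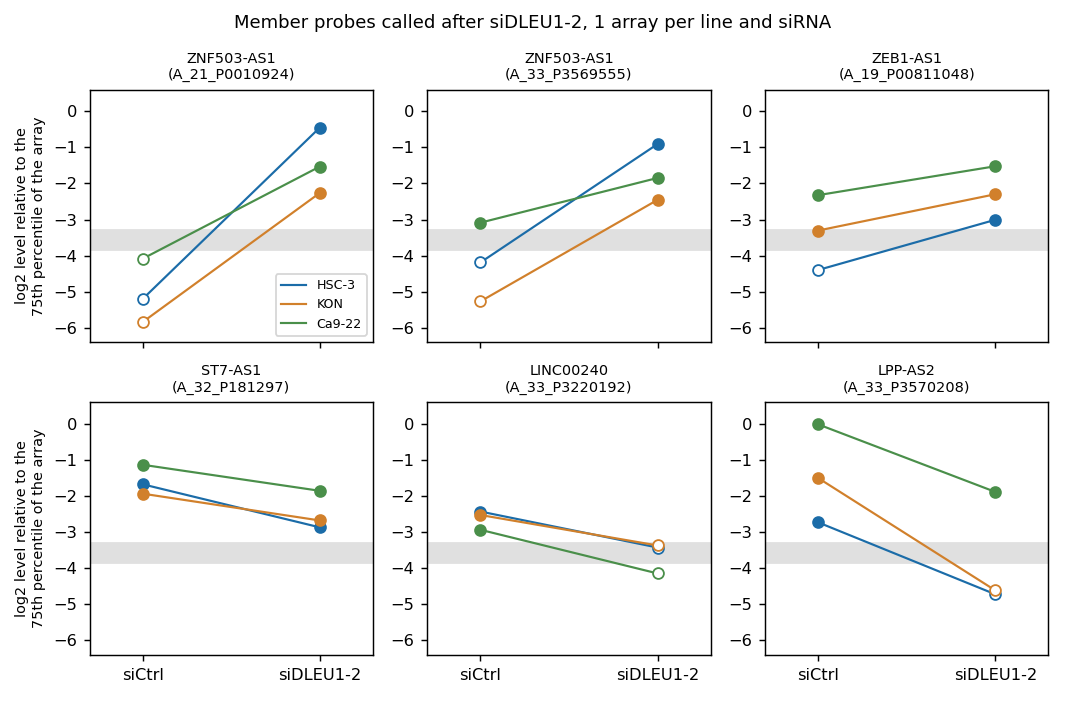
Log2 level relative to the 75th percentile of the array (y axis) after siCtrl and siDLEU1-2 (x axis) for the 6 called member probes, 1 line per cell line; open circles were not well above background and the grey band is the range of the lowest detected signal over arrays. Both ZNF503-AS1 probes rose and LPP-AS2 fell in all 3 lines, and 11 of the 36 points, among them all 3 controls of the first ZNF503-AS1 probe, are open.

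Reading the arrays by fold alone, 5 of the 103 probes changed over 2-fold in all 3 lines, beside 4.38% of all probes tested. They were the 2 ZNF503-AS1 probes and LPP-AS2, each in 1 direction, and 1 probe each of LINC00263 and FOXP1-IT1, which went opposite ways between lines. LINC00263, now named OLMALINC, went from 0.82 to 1.91 in HSC-3 and from -1.20 to 0.22 in KON, but from 2.20 to 1.13 in Ca9-22. Its other probe followed, with changes of 0.77, 0.54 and -1.16. FOXP1-IT1, from an intron of the forkhead gene FOXP1, went from -3.36 to -1.28 in HSC-3 and from -3.13 to -2.03 in KON, and from -2.29 to -3.58 in Ca9-22. Neither HSC-3 control nor Ca9-22 siDLEU1-2 was well above background for it. FOXP1 changed by -0.18, -0.27 and -0.22 on its brightest probe, and its other probes had mean changes of -0.67 and -0.13, none called.

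LINC00460 and LINC00319 belong to the lncRNAs followed by qRT-PCR in the work that produced these arrays. LINC00460, read by 3 tested probes, went from 0.28 to -0.15 in HSC-3, from 0.96 to 1.24 in KON and from -0.51 to -0.82 in Ca9-22 on its brightest probe (mean log2 change -0.16 ± 0.38, SD, n = 3; adjusted p 0.640). LINC00319 went from -2.66 to -4.02, from -3.74 to -4.68 and from -2.66 to -1.69 (mean -0.44 ± 1.24; adjusted p 0.595), with a negative change in HSC-3 and KON, where the siDLEU1-2 arrays were dim, and a positive one in Ca9-22. With dim values raised to the lowest detected signal its mean turned to 0.09. For the 3 lists that follow, 8.50% of all probes tested were called in either direction, and with 2 or 3 genes tested a list's count is a description. Of 13 well-studied LINC genes, 6 were on the array and 2 were tested, LINC00152 (CYTOR; mean 0.53, adjusted p 0.149) and LINC00467 (-0.54, adjusted p 0.0780), with neither called. Of 18 antisense genes named after transcription factors, a list that took in every member whose name starts with HOX, 7 were members and 3 were tested. ZEB1-AS1 was the 1 called, and HOXB13-AS1, also tested, is now listed as the protein-coding gene PRAC2. Of 11 antisense genes studied in cancer, 4 were members and 3 were tested, with ST7-AS1 the 1 called.

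Members with several tested probes gave a measure of how firm single-probe values are. In 18 genes with at least 2 tested probes, the mean log2 changes of the probes of 1 gene ranged over a median of 0.31 and at most 1.18, and 11 genes had the same sign on all probes. LINC00467 had 4 tested probes, 3 of which overlap or lie next to each other, with mean changes from -0.60 to -0.47 and lower values after siDLEU1-2 on all 4 probes in every line, none passing the test. LINC00472, picked here after its values were seen, had mean changes of 1.48 and 1.17 on its 2 tested probes of 6, which share 58 of 60 bases (adjusted p 0.111 and 0.179), with 2.70 and 2.44 in HSC-3, where the control was not well above background. Its 4 untested probes split. A_19_P00322149 and A_19_P00321739 had higher values after siDLEU1-2 in every line, whereas A_19_P00319404 had lower ones in KON (-2.46 to -3.67, the latter dim) and Ca9-22 (-0.77 to -2.36), and A_23_P156408, detected in the Ca9-22 control alone, in Ca9-22 (-1.99 to -3.22). The median SD of the log2 change over lines was 0.37 for the 103 probes and 0.29 for all probes tested.

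To compare antisense and intronic members with the gene they are named after, the name without its suffix was looked up on the array. For 138 such names, 137 were present, and in 36 pairs both sides were tested, 31 antisense and 5 intronic. Probes lay on opposite strands in 30 of the 31 antisense pairs and on the same strand in all 5 intronic pairs. The exception, HNRNPU-AS1, shares the strand of HNRNPU, and RefSeq lists its name as an older symbol of that gene. Beside the pair of LPP-AS2 and LPP, the member alone was called in 2 pairs (ZNF503-AS1, ST7-AS1), the sense or host gene alone in 3, and neither in 30.

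The 3 called host or sense genes without a called partner were ANKRD10, FLVCR1 and TRAF3IP2. ANKRD10 rose by 2.11, 2.73 and 1.72 in HSC-3, KON and Ca9-22 (adjusted p 0.0247), whereas ANKRD10-IT1 changed by 1.59, 0.31 and -0.32. FLVCR1, a heme exporter, fell by 1.08, 1.08 and 1.55 (adjusted p 0.0305), and FLVCR1-AS1, now FLVCR1-DT, changed by -0.78, -0.07 and -0.72 (adjusted p 0.167). TRAF3IP2, the interleukin-17 receptor adaptor, fell by 1.09, 1.17 and 1.01 (adjusted p 0.0274), and its antisense gene changed by -0.55, -0.08 and -0.31 on the brighter of 2 tested probes and by 0.37, 1.23 and 0.77 on the other.

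Across the 36 pairs, 19 moved in the same direction and 17 in opposite directions. Pearson's r between the mean changes of member and sense gene was 0.15 and Spearman's rho 0.30, as a description over pairs that share the same 6 arrays. In RefSeq, 19 of 72 antisense members with both starts listed begin within 300 bases of the sense start and run away from it. Of these 19, 8 had a tested probe (42.1%), and so had 17 of the other 53 (32.1%). In the 6 such head-to-head pairs with both sides tested, 3 moved in the same direction and 3 in opposite directions.

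**Figure D3:**
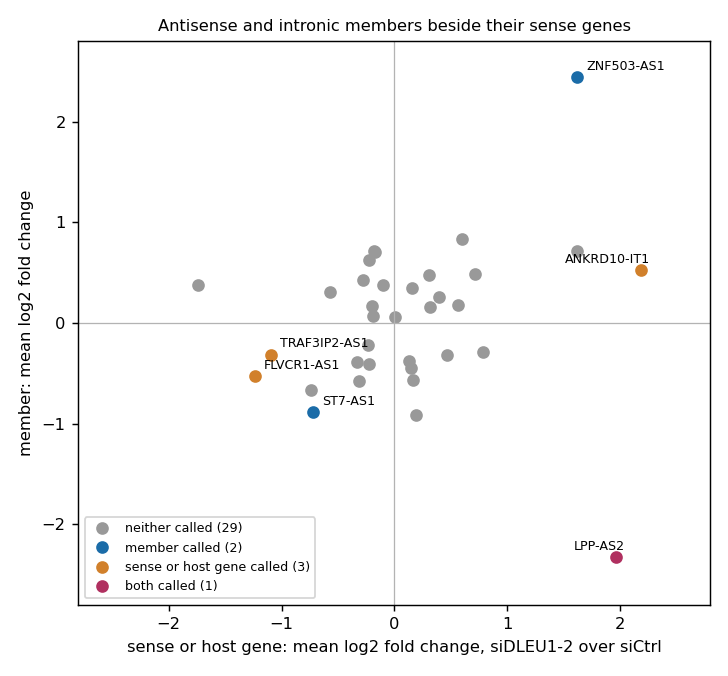
Mean log2 fold change of each antisense or intronic member (y axis) against that of its sense or host gene (x axis), siDLEU1-2 over siCtrl, 1 point per pair for 35 of the 36 pairs (the pair on chromosome Y is not drawn). LPP-AS2 stands alone at the lower right, at -2.33 (-1.59 with dim values raised to the lowest detected signal) against 1.96 for LPP. ZNF503-AS1 lies at the upper right, at 2.45 (1.77 with dim values so raised) against 1.62 for ZNF503, which was not called.

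More member probes were called between cell lines than between siRNAs, by different tests, and the sizes of these effects were not compared. Of the 103 probes, 52 (50.5%) differed between lines by the F test of limma, similar to the 53.8% of all probes tested. By class these were 27 of 55 LINC and 25 of 43 antisense probes. Higher in 1 line than in both others, at an adjusted p below 0.05 in both contrasts, were 8 probes for HSC-3 (9.29% of all probes tested), 8 for KON (7.45% of all) and 10 for Ca9-22 (5.91% of all), each out of 103. With 2 arrays per line, 1 of each siRNA, these tests measure the spread between arrays of a line after the siRNA term.

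HSC-3 stood out by LINC00294, ZBTB20-AS1, RUSC1-AS1 and LINC00467, the first 4 of 5 genes. LINC00294 was at 3.53 and 3.43 in HSC-3 (siCtrl and siDLEU1-2), whereas KON had 1.65 and 1.82 and Ca9-22 had 1.32 and 1.49, a smaller mean difference of 1.74 log2 (against KON). ZBTB20-AS1 reached 6.37 and 7.11 in HSC-3 against 4.76 and 5.30 (KON) and 4.07 and 4.24 (Ca9-22), a smaller difference of 1.71. Its sense gene ZBTB20, a BTB zinc-finger repressor, had the opposite order, 1.26 log2 higher in KON and 1.83 higher in Ca9-22 than in HSC-3.

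KON stood out by MORC2-AS1, LINC00115, ZNFX1-AS1 and LINC00460. MORC2-AS1 was at 2.18 and 2.42 in KON, 0.01 and -0.04 in HSC-3 and 0.29 and 0.62 in Ca9-22, so that KON was 2.32 and 1.85 log2 higher (adjusted p 0.00619 and 0.00773). MORC2, a chromatin-remodeling ATPase, differed by at most 0.63 between lines and was not called (adjusted p 0.0576). ZNFX1-AS1, the snoRNA host gene now named ZFAS1, was 1.07 and 1.05 log2 higher in KON than in HSC-3 and Ca9-22. LINC00460 was 1.03 log2 higher in KON than in HSC-3 and 1.76 higher than in Ca9-22.

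Ca9-22 stood out by LPP-AS2, UBAC2-AS1, THAP7-AS1 and FBXL19-AS1, the first 4 of 9 genes. UBAC2-AS1 was at 1.91 and 1.17 in Ca9-22, 0.21 and -1.22 in HSC-3 and -0.42 and -1.0 in KON, a smaller mean difference of 2.04 log2 (against HSC-3). UBAC2, an endoplasmic reticulum protein whose start lies 97 bases away on the other strand, differed by at most 0.27 between lines (F test, adjusted p 0.378). THAP7-AS1 was 1.74 and 1.81 log2 higher in Ca9-22 than in HSC-3 and KON, and THAP7 was also highest there, by 0.61 and 1.05. LPP-AS2 was higher in Ca9-22 than in HSC-3 and KON under either siRNA, by an amount that is uncertain because it was dim after siDLEU1-2 in both of those lines. FBXL19-AS1 was dim in the HSC-3 control (-5.15). Its second probe, well above background on no array, had means of -3.70 (HSC-3), -3.68 (KON) and -3.73 (Ca9-22). In 10 of the 36 pairs both genes differed between lines, and in 6 of these the same line was highest for both.

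Some member probes were detected in 1 line alone and could not be tested, so their differences are bounds on means over arrays. AFAP1-AS1, antisense to the actin filament-associated protein gene AFAP1, was at 1.74 and -0.29 in HSC-3 and between -5.83 and -5.33 on the other 4 arrays, none well above background, so it was at least 19.0-fold higher in HSC-3. Within HSC-3 it was lower after siDLEU1-2, with 1 array each and no test. AFAP1 itself was well above background on all 6 arrays, between -0.54 and 0.36. LINC00221 was at 2.39 and 3.20 in KON and between -5.77 and -5.37 elsewhere, at least 77.3-fold higher in KON, and its second probe was detected in KON only as well. LINC00470 (at least 11.5-fold) and LINC00478, the MIR99AHG host transcript (at least 8.78-fold), were likewise detected in KON only on 2 probes each. In Ca9-22 the same held for GCFC1-AS1 on 2 probes (at least 3.61-fold on the first) and for the 1 probe of TP73-AS1 (at least 2.43-fold), which RefSeq now lists as the pseudogene GFOD3P. LINC00087 met it on 1 of 3 probes (at least 3.31-fold), but its second probe was also detected in the HSC-3 control, and the last was well above background on every array with a Ca9-22 minus HSC-3 difference of -0.05 (adjusted p 0.846). In HSC-3 the second such gene was LINC00324 (at least 2.82-fold).

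KON had the most members of this kind. Well above background on both arrays of a line and on no other array were 2 of the 392 probes for HSC-3 (0.679% of all probes), 11 for KON (1.4% of all) and 5 for Ca9-22 (0.894% of all). As shares of the 392, these were 0.510, 2.81 and 1.28%. GNAS-AS1, an imprinted antisense gene named here after its values were seen, was the reverse case: on 2 probes it was well above background on all 4 KON and Ca9-22 arrays and at -5.74 to -5.51 in HSC-3.

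**Figure D4:**
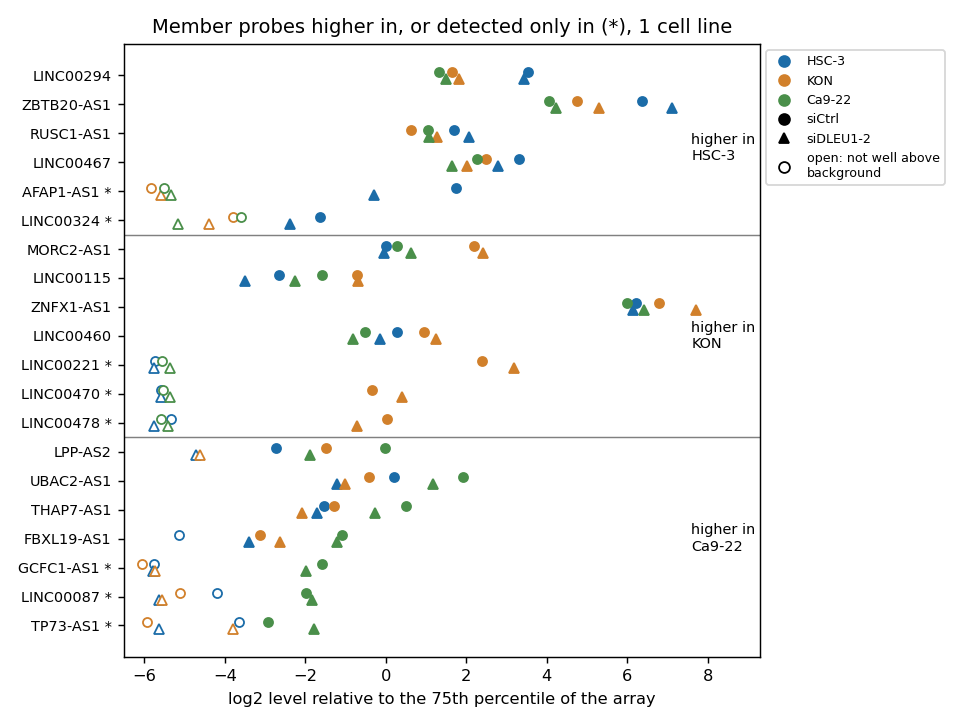
Log2 level relative to the 75th percentile of the array (x axis) for members higher in 1 line than in both others (up to 4 per line) and probes detected on both arrays of 1 line only (asterisk, up to 3 per line); colors give the line, circles siCtrl, triangles siDLEU1-2, and open symbols were not well above background. Both arrays of the named line lie to the right for most rows; in the LPP-AS2 row the circle and triangle of each line lie apart too, with Ca9-22 at -0.01 and -1.88.

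Other noncoding names on the array gave the following counts. Of 36 tested probes for 12 SNHG genes, which host small nucleolar RNAs, 0 were called in either direction by limma (2 higher and 1 lower at an unadjusted p below 0.05), beside 3.98% higher and 4.52% lower over all probes tested (14.6 and 14.9% unadjusted). Their median log2 fold change was 0.42, beside 0.01 over all probes, and 30 differed between lines, where 53.8% of all probes tested did. Of 7 tested probes of microRNA host genes, 0 were higher (0 also at an unadjusted p below 0.05) and 2 were lower, beside 4.52% lower over all probes. Differences in these shares were not tested. No probe of the 3 overlapping-transcript genes (-OT1) and 1 probe of the antisense genes ending in -AS, -AS3 or -AS4 passed the filter, and it was not called.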

How the data were processed

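RNA of 6 samples (100 ng each) was labeled and hybridized to SurePrint G3 Human GE v2 arrays, and whether a sample is 1 transfection is not given in the sources used here. The authors deposited scanner output with intensity values (gProcessedSignal) from Agilent Feature Extraction (version 10.7, per the submitters' processing notes), and a table of intensity values within 0.497% of them. Here log2(gProcessedSignal) was averaged over the spots of a probe without outlier flags and each array was set relative to its 75th percentile. A probe counted as well above background with at least 50% of spots so flagged, and entered tests if so on at least 1 array of every line. limma 3.58.1 (R 4.3.3) fitted line and siRNA with Benjamini-Hochberg adjustment over 19956 probes. Arrays of a line deviated together (r 0.81 to 0.83), and the pairing comes from the line labels. A "fold" follows from log2 values. The words "at least" compare means over arrays, with dim arrays set at the lowest detected signal or their own, whichever was higher. The bound for a single line can be smaller. An exact test over 3 lines cannot go below 0.25.

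The script was tested on simulated data. A gene was represented by its brightest tested probe. Named were the called genes (up to 12 each way), 4 short lists, pairs with both called, members over 2-fold in opposite directions, members detected under 1 siRNA only, and the leading members per line (up to 4 tested, up to 3 with bounds). Members and lists were chosen with earlier results of these data known. Probe positions are hg19, and RefSeq names and start sites are GRCh38.p14. Alternatives covered normalization, background, filter, test and left-out lines.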

Additional observations from a re-analysis of the deposited data

Results flagged for a closer look

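LINC00263 (now OLMALINC) moved in opposite directions between lines, with log2 changes of 1.09 (HSC-3), 1.42 (KON) and -1.07 (Ca9-22). FOXP1-IT1 did so as well, at 2.08, 1.09 and -1.29 in this order. The Ca9-22 siDLEU1-2 array and HSC-3 control were dim for FOXP1-IT1, whose Ca9-22 change was -0.996 (under 2-fold) with dim values raised to the lowest detected signal. With normexp no change of either gene was over 2-fold, at 0.77, 0.43 and -0.31 for FOXP1-IT1 and 0.914, 0.998 and -0.969 for LINC00263. Both are listed because, in the main setting, HSC-3 and KON rose over 2-fold while Ca9-22 fell over 2-fold. With median centering the KON change of FOXP1-IT1 was 0.974, under 2-fold. The contrast among lines was not tested, as a single array stands for each siRNA in each line.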

How the results depend on the processing

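Of 103 tested probes, 3 were higher and 3 lower after siDLEU1-2, and the same 6 probes were called with quantile normalization, median centering, another percentile and the series table. With normexp background correction 1 was higher (ZNF503-AS1 probe A_21_P0010924) and 4 were lower, the latter all different probes (3 of LINC00467, 1 of UBAC2-AS1), and 0 pairs had both genes called. With detection required on all 6 arrays 0 were higher (8 at an unadjusted p below 0.05) and 2 lower (ST7-AS1 and LINC00341, the latter named after its values were seen), and 0 pairs were called. With no filter 0 of 392 were called in either direction (19 higher and 21 lower at an unadjusted p below 0.05), and 0 pairs. Without the replicate block 0 were higher, 0 lower and 0 pairs were called (3 higher and 1 lower unadjusted). In a fit of the line without the siRNA term, 29 probes differed between lines instead of 52. A t-test that ignored the line called 0 and 0 (3 and 2 unadjusted). With no filter, without the block, by the t-test, and without HSC-3 or KON, 0 probes of the whole array were called either (6816, 1357, 1373, 4547 and 4676 unadjusted). Of all probes, 8.50% were called in the main setting, 11.6% with normexp, 11.4% with detection on all 6 arrays and 1.22% without Ca9-22, beside 5.83, 4.85, 2.5 and 1.94% of the members. Leaving out 1 line gave 0 to 2 higher, 0 to 0 lower, 0 to 0 pairs, 29 to 38 probes differing between lines, and 5 to 8 probes over 2-fold in all lines left. That last count was 5 in the main setting, 4 with median centering, 0 with normexp and 1 with detection on all 6 arrays. It was 11 with no filter, 3 with dim values raised to the lowest detected signal, and 2 at 3-fold. The mean share of probes detected was 31.3%, and 58.0% with the weaker flag of signal significantly above background. LINC00319, not called, turned from -0.44 to 0.0893 with raised dim values, and leaving out 1 line moved it between -1.147 and 0.01962, the latter without HSC-3. Normexp shrank the log2 change of ZNF503-AS1 probe A_33_P3569555 to 0.78 (adjusted p 0.0505), LPP-AS2 to -0.85 (0.0535), ZEB1-AS1 to 0.36 (0.0863), ST7-AS1 to -0.34 (0.104) and LINC00240 to -0.22 (0.230). The cause was not tested. Of the 6 called probes, 5 had 1 or more dim arrays, and ST7-AS1 had none. LINC00240 lost its call with raised dim values (-0.73, adjusted p 0.0698).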
